A study of Mus musculus with 9 samples.

Results

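Kbtbd11, Susd3, Cldn11 and Slc43a2 were followed through LPS and LPS + G-CDs treatment of RAW264.7 cells, an established mouse macrophage line that grew out of an ascites tumour. The 4 genes were picked from the 54532 genes of the table for the size of their fall from control to LPS, so that fall is a description here and carries no test, and the question put to the data was how far each level lay above the LPS level when G-CDs were added. Among 11585 genes with enough signal to be tested, they ranked 1, 2, 4 and 5 by the size of the fall on the scale log2(FPKM + 1), and all 4 passed the filter on low values. FPKM is the number of sequenced fragments scaled to gene length and library size, so levels of different genes can be set side by side. Each of the 3 groups held 3 libraries of polyadenylated RNA. Control cells were untreated, LPS cells received lipopolysaccharide, a component of the bacterial outer membrane, at 1 μg/ml for 6 h, and LPS + G-CDs cells received the same LPS together with G-CDs at 400 μg/ml for 6 h. G-CDs are carbon dots made from Glycyrrhiza by heating in water. The cell line is labelled wild type in every group, and no group received G-CDs alone.

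The 4 genes belong to separate families. Kbtbd11 encodes a BTB-Kelch protein, and many proteins of this kind hold substrates for the Cul3 ubiquitin ligase, as Keap1 does for Nrf2. Susd3 encodes a membrane protein with a sushi domain, a fold best known from complement regulators. Cldn11 encodes claudin-11, which seals tight junctions in myelin and between Sertoli cells, and Slc43a2 encodes LAT4, a sodium-independent carrier of branched-chain amino acids, phenylalanine and methionine. LPS is known to switch macrophages to an inflammatory programme within hours, in which many genes of resting cells are turned down.

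The libraries held between 14752400 and 17312255 reads on genes. The LPS response was present, as Tnf stood at 53.3 ± 17.2 FPKM in control (SD, n = 3 in every group, here and below), 2512 ± 55.4 in LPS and 2622 ± 155 in LPS + G-CDs, and Il1b at 0.0103 ± 0.0178, 424 ± 7.72 and 349 ± 58.4 FPKM. Of 7 macrophage markers, 6 were above 1 FPKM in every library, and Fcgr3 had means of 0.760, 0.178 and 0.513 FPKM in control, LPS and LPS + G-CDs. The 7 had summed levels of 2105 to 2959 FPKM in control, 1483 to 1545 in LPS and 1147 to 1677 in LPS + G-CDs. The sum is mostly Lyz2, whose LPS mean, like that of Csf1r, was below control, while the LPS means of Ptprc (18.6 against 9.13 FPKM), Itgam (12.5 against 8.59), Adgre1 (27.3 against 9.02) and Cd68 (316 against 276) were above it. Markers of T cells, B cells, epithelial cells and fibroblasts summed to at most 0.52 FPKM in any library, with Cd8a, Ms4a1, Epcam, Krt18, Cdh1 and Pdgfra at 0, and the 3 endothelial markers to at most 1.21 FPKM. Since claudin-11 is known from oligodendrocytes and Sertoli cells, their markers were read too. Of 4 oligodendrocyte markers only Mbp passed 1 FPKM, at 16.8 ± 1.74, 6.87 ± 0.0731 and 6.29 ± 0.750 FPKM in control, LPS and LPS + G-CDs, with Mog at 0. Of 3 Sertoli markers only Rhox5 passed it, at 24.6 ± 7.17, 21.9 ± 1.45 and 29.3 ± 13.8 FPKM, with Sox9 at 0.

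Kbtbd11 (ENSMUSG00000055675) lies on the plus strand at chr8:15011025-15033333 of GRCm38. Its longest coding transcript has 2 exons. Control libraries 1, 2 and 3 gave 82.9, 73.1 and 55.5 FPKM. LPS libraries gave 4.32, 3.71 and 3.62 FPKM, and LPS + G-CDs libraries 5.55, 4.41 and 4.62 FPKM. The lowest control value was far above every treated value, and the lowest LPS + G-CDs value was only just above the highest LPS value. Mean levels were 70.5 ± 13.9, 3.89 ± 0.377 and 4.86 ± 0.608 FPKM, so the LPS mean was 5.51% and the LPS + G-CDs mean 6.90% of the control mean. The number of reads still found on Kbtbd11 under LPS was 426, 366 and 376, which places the gene at a low level rather than at 0. Of its 50-base words, 24.9% also occur in other genes, all of them genes that overlap it. Those are 5830468F06Rik, with 1 read in LPS and 0 in the other groups, and Gm37844, with 25 reads in control, 0 in LPS and 3 in LPS + G-CDs, both on the opposite strand.

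Susd3 (ENSMUSG00000021384) lies on the minus strand at chr13:49230690-49248706, with 5 exons in its longest coding transcript. Control libraries gave 18.8, 11.1 and 17.5 FPKM. LPS libraries gave 0.867, 0.766 and 0.800 FPKM, and LPS + G-CDs libraries 1.76, 2.21 and 3.16 FPKM. Each LPS + G-CDs library was above every LPS library, and each stayed below the lowest control library. The means were 15.8 ± 4.12, 0.811 ± 0.0514 and 2.37 ± 0.718 FPKM, or 5.13% of control in LPS and 15.0% in LPS + G-CDs. Susd3 was the most thinly read of the 4 genes, with 34, 30 and 33 reads in the LPS libraries and 72, 104 and 126 in the LPS + G-CDs libraries, against 999, 536 and 885 in control.

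Cldn11 (ENSMUSG00000037625) lies on the plus strand at chr3:31149920-31164324 and has 1 annotated transcript of 3 exons. Control libraries gave 74.8, 62.8 and 71.2 FPKM. LPS libraries gave 9.13, 9.45 and 9.27 FPKM, and LPS + G-CDs libraries 11.9, 13.1 and 16.9 FPKM. The LPS libraries lay very close together, and all LPS + G-CDs libraries were above them. The means were 69.6 ± 6.13, 9.28 ± 0.161 and 14.0 ± 2.60 FPKM. Cldn11 thus kept the highest share of its control level under LPS, 13.3%, and stood at 20.05% with G-CDs. The tight-junction gene was at almost the same level as Kbtbd11 in control and at a higher one in every LPS library.

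Slc43a2 (ENSMUSG00000038178) lies on the plus strand at chr11:75531694-75577575, with 14 exons in its longest coding transcript. Control libraries gave 13.4, 11.7 and 8.62 FPKM. LPS libraries gave 0.893, 0.866 and 0.726 FPKM, and LPS + G-CDs libraries 1.80, 1.36 and 1.06 FPKM. Again the 3 groups did not overlap, and LPS + G-CDs library 3 came closest to the LPS libraries. The means were 11.2 ± 2.41, 0.828 ± 0.0896 and 1.41 ± 0.376 FPKM, which put LPS at 7.38% and LPS + G-CDs at 12.5% of control. Reads on the gene numbered 124, 120 and 106 under LPS. An antisense gene, Gm45606, overlaps Slc43a2 and stood at 2.63 ± 0.632 FPKM in control, 0.193 ± 0.122 in LPS and 0.281 ± 0.111 in LPS + G-CDs. Whether the counting used strand is not given in the sources used here, so reads where this antisense pair overlaps cannot be told apart. Of the 50-base words of Slc43a2, 6.65% also occur in other genes. Reads on Gm45606 numbered 394 in control, 23 in LPS and 35 in LPS + G-CDs, against 6057, 350 and 638 on Slc43a2. Mir3971, which overlaps Slc43a2 on the same strand, had 9, 0 and 2 reads.

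**Figure D1:**
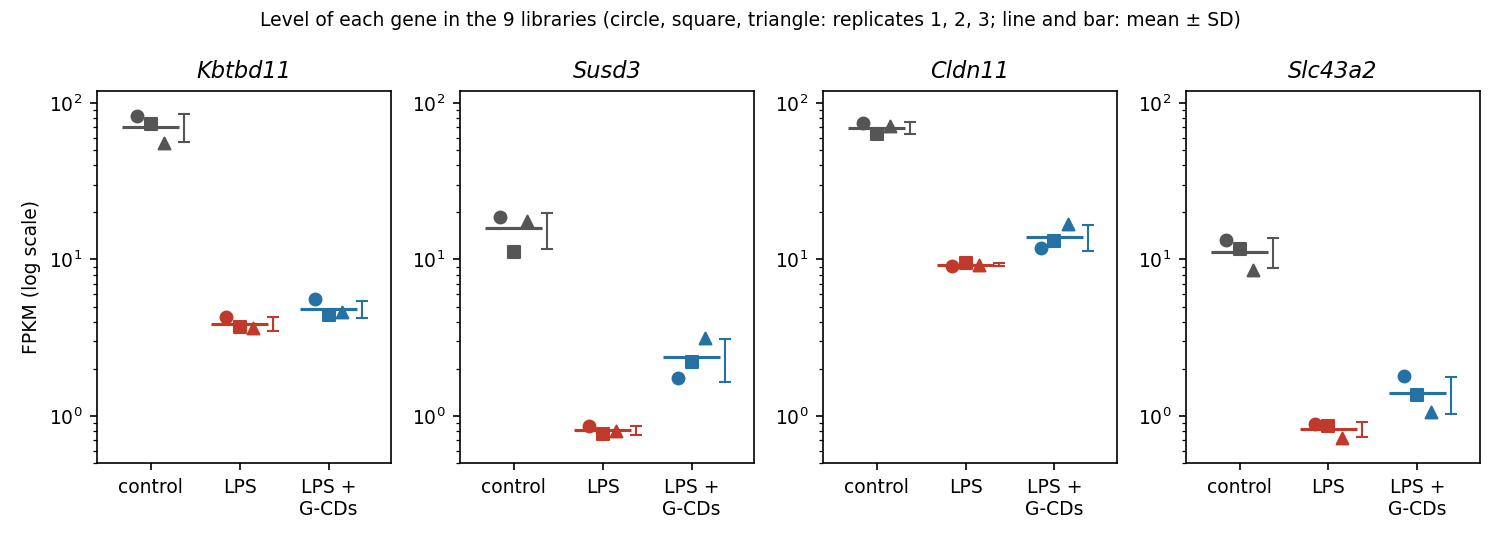
Level of Kbtbd11, Susd3, Cldn11 and Slc43a2 in each of the 9 libraries, in FPKM on a log axis, with the mean and SD of each group of 3. In every panel the control libraries sit highest, the LPS libraries lowest and the LPS + G-CDs libraries just above the LPS libraries without overlap.

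Put as folds, the LPS means lay 18.1-fold (Kbtbd11), 19.5-fold (Susd3), 7.498-fold (Cldn11) and 13.5-fold (Slc43a2) below the control means. On the log2(FPKM + 1) scale, which understates changes of low genes, the falls were −3.85 (SE 0.16) for Kbtbd11, −3.18 (SE 0.21) for Susd3, −2.78 (SE 0.14) for Cldn11 and −2.72 (SE 0.18) for Slc43a2. The gene ranked 3, Ptgs1, which encodes cyclooxygenase-1, fell by 2.96 and is not one of the 4. On the log2(FPKM + 1) scale the smallest fall among the 4 was that of Slc43a2, while by the fold of the means it was that of Cldn11. The next gene below Slc43a2 on that log2 scale was Selenbp1, a selenium-binding protein gene, at −2.58. By adjusted p under 0.05, LPS raised 15.8% and lowered 15.6% of the tested genes, and nothing is read from the 4 genes being among the lowered ones, since this contrast chose them. In bulk RNA, fewer cells expressing a gene and less RNA per cell cannot be told apart.

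The sequence around the start sites is shown for context, since the 4 genes were chosen for a shared fall and that fall gives no evidence of shared control. RefSeq windows from 250 bases before to 50 after a start, on GRCm38.p6, were at hand for Cldn11, Slc43a2 and Susd3, and Slc43a2 had 2 of them. The first window of each gene is printed 5′ to 3′ on the strand of its gene, with matches to 8 searched motifs in capitals. They are Cldn11 at chr3:31149670-31149969 (plus), the first Slc43a2 window at chr11:75531444-75531743 (plus) and Susd3 at chr13:49248245-49248544 (minus).
Cldn11: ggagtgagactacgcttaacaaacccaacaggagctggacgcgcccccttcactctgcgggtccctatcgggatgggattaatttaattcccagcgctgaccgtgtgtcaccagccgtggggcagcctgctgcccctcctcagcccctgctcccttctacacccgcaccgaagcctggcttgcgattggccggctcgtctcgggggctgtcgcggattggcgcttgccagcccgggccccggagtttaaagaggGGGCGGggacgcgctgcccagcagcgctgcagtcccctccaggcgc
Slc43a2: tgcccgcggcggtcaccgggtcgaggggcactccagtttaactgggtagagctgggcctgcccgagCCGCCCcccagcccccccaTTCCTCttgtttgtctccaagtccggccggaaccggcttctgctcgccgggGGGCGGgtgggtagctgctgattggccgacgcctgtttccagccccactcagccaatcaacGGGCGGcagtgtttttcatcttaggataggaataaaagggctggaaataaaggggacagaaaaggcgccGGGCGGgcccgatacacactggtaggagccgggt
Susd3: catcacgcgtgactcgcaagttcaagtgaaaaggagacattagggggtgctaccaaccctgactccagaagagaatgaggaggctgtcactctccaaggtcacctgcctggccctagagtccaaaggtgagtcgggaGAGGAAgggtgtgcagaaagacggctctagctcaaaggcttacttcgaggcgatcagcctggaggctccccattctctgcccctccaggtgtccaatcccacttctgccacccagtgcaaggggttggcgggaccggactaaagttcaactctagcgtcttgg
The Susd3 start used by RefSeq lies 412 bases inside the gene as the deposited table bounds it, and the start of the second Slc43a2 window, which is not printed, lies 418 bases inside.

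The windows of Cldn11 and Slc43a2 were rich in G and C, at 66.3% for Cldn11 and 63.7% and 62.7% for Slc43a2, and that of Susd3 held 56.7%, against a median of 52.7% over all 32851 windows. Motifs were searched on both strands. The GC box GGGCGG, the kind of site Sp1 is known to bind, was in 3 of the 4 windows and in 35.7% of all windows. It lay at position 5 from the start in Cldn11, at −184 (on the other strand), −114, −53 and 17 in the first Slc43a2 window and at −24 in the second. The core GAGGAA of the macrophage factor PU.1 was in 2 of the 4 and in 28.3% of all windows, at −113 in Susd3 and at −165 on the other strand in Slc43a2. The remaining 6 motifs were in none of the 4 windows. They were the TATA box TATAAA (13.6% of all windows), the AP-1 site TGACTCA (5.20%), the NF-κB form GGGANTTTC (1.11%), the antioxidant response element core TGACNNNGC (12.4%), the interferon response form GAAANNGAA (8.56%) and the E-box CACGTG (7.15%). These are matches of letters in short windows, and binding was not measured.

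To ask how far G-CDs moved the 4 genes from their LPS level, LPS + G-CDs was compared with LPS in limma across all tested genes. All 4 fitted differences were above 0, as were 6028 of the 11585 tested genes, and none of the 4 passed an adjusted p under 0.05. By that rule 0.25% of the tested genes were higher and 0.242% lower with G-CDs, so calls were rare throughout. The LPS libraries took part in choosing the 4 genes, so this comparison is not free of the choice. Susd3 had the largest difference, 0.88 (SE 0.21, 95% interval 0.40 to 1.36, limma adjusted p = 0.159). Cldn11 differed by 0.53 (SE 0.14, interval 0.21 to 0.85, limma adjusted p = 0.199). For Slc43a2 the difference was 0.39 (SE 0.18, interval −0.01 to 0.79, limma adjusted p = 0.326), and for Kbtbd11 0.26 (SE 0.16, interval −0.10 to 0.62, limma adjusted p = 0.379). Before adjustment, Susd3 and Cldn11 had a limma p under 0.05, as did 7.19% of the tested genes in the upward direction and 15.2% in either direction. With limma's voom on the reads recovered from FPKM, 0 of 4 passed after adjustment and 3 of 4 before it, against 0.207% and 6.72% of the tested genes in the upward direction.

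Every LPS + G-CDs library lay above every LPS library for all 4 genes, which held for 12.9% of the tested genes. A higher fitted difference than that of Susd3 was found in 0.906% of the tested genes, and the corresponding shares were 7.23% for Cldn11, 14.7% for Slc43a2 and 24.9% for Kbtbd11. In linear terms the LPS + G-CDs means were 2.93-fold (Susd3), 1.70-fold (Slc43a2), 1.503-fold (Cldn11) and 1.25-fold (Kbtbd11) the LPS means. They remained 6.65-fold (Susd3), 7.98-fold (Slc43a2), 4.99-fold (Cldn11) and 14.5-fold (Kbtbd11) below control.

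**Figure D2:**
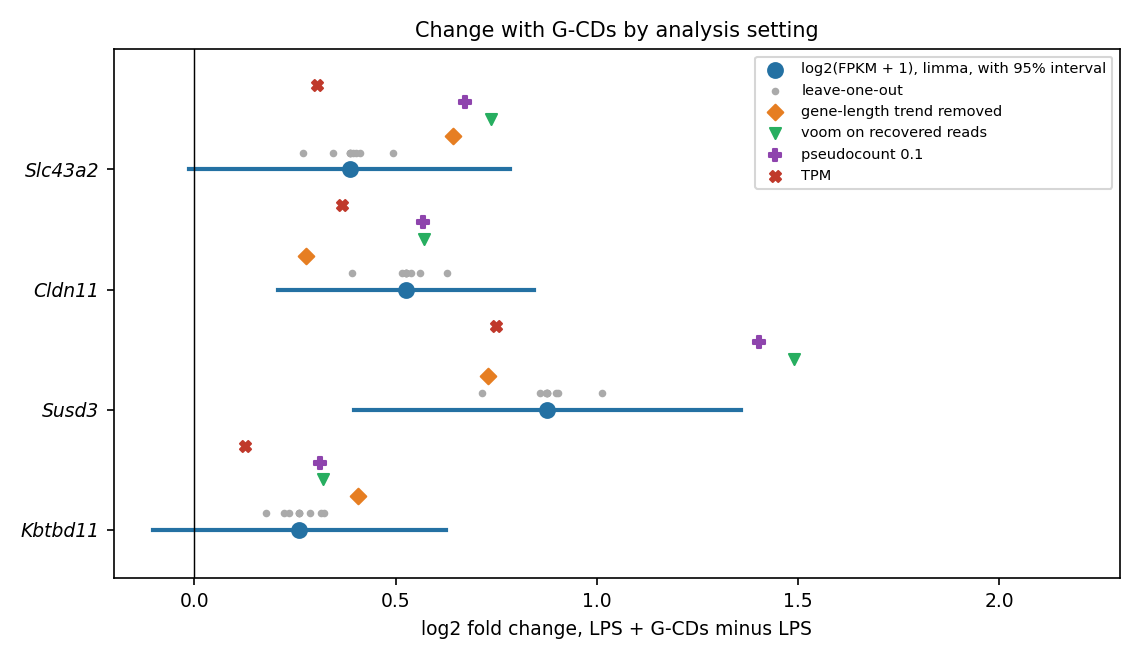
Fitted log2 difference between LPS + G-CDs and LPS for each gene (large points, with 95% intervals as bars) and the same difference under other analysis settings (small symbols; grey points leave out 1 library each). Every point lies above 0, and among the large points Susd3 is farthest from it at 0.88 and Kbtbd11 nearest at 0.26.

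The share of the fall regained was taken as the distance of each LPS + G-CDs library from the LPS mean, as a percent of the distance between the LPS and control means, on the log2(FPKM + 1) scale. Susd3 regained 27.6 ± 9.46% (19.0, 25.9 and 37.7% in libraries 1, 2 and 3). Cldn11 regained 19.0 ± 8.77% (11.7, 16.5 and 28.7%), Slc43a2 14.2 ± 8.24% (22.7, 13.6 and 6.27%) and Kbtbd11 6.75 ± 3.80% (11.1, 3.90 and 5.30%). Neighbours in this order overlapped in their ranges, while all values of Susd3 were above those of Kbtbd11, and Susd3 was above Cldn11 in each of the 3 libraries. The order of Cldn11 and Slc43a2 depended on the setting. With the gene-length trend removed, Susd3 regained 23.7%, close to the 22.3% of Slc43a2, while Cldn11 regained 10.5% and Kbtbd11 10.4%. By TPM, Susd3 regained 21.9%, Cldn11 12.1%, Slc43a2 10.3% and Kbtbd11 3.05%. With voom the shares were 35.3% for Susd3, 19.7% for Cldn11, 19.6% for Slc43a2 and 7.68% for Kbtbd11. On the linear FPKM scale the shares of the mean fall were smaller, 10.4% for Susd3, 7.75% for Cldn11, 5.57% for Slc43a2 and 1.46% for Kbtbd11.

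Differences between the genes in their response to G-CDs were then tested in the 6 possible pairs, by an exact permutation test (two-sided) on the difference of the 2 genes' log2 values in each library. With 3 libraries against 3 this test cannot go below 0.1. The fitted difference of Susd3 exceeded that of Kbtbd11 by 0.62 and that of Cldn11 by 0.35, both without overlap between the groups and at the smallest p the exact test allows (0.1, adjusted 0.3). The other 4 pairs differed by 0.13 to 0.49 in size with exact p-values from 0.3 to 0.7. This test could therefore call no pair, and the values are a description. The level of Susd3 minus that of Cldn11 ran from −2.57 to −2.44 in the LPS libraries and from −2.22 to −2.10 in the LPS + G-CDs libraries. For Kbtbd11 minus Susd3 the same quantity ran from 1.36 to 1.51 and from 0.43 to 1.25. With the gene-length trend removed, the fitted differences were 0.73 for Susd3, 0.41 for Kbtbd11 and 0.28 for Cldn11. The gap of Susd3 to Kbtbd11 was then smaller and that to Cldn11 larger.

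The other 6 genes among the 10 largest falls were set beside the 4. All 6 had a higher mean with G-CDs than with LPS alone, as did 6028 of the 11585 tested genes. For 3 of them the groups did not overlap, which held in this direction for 12.9% of the tested genes. The 6 had a median difference of 0.42, against 0.46 for the 4 genes and 0.0174 over all tested genes. Their regained shares ran from 0.898 to 49.0% with a median of 14.9%, and those of the 4 genes from 6.75 to 27.6% with a median of 16.6%. Like the 4 genes, these 6 were chosen on the LPS libraries. The gene 2210408F21Rik was the only one called, at 1.22 (limma adjusted p = 0.0432), with 9.24 ± 2.08 FPKM in control, 0.808 ± 0.240 in LPS and 3.25 ± 0.874 in LPS + G-CDs, and it was called in 10 of 20 analysis settings and not without any 1 of the LPS libraries. Selenbp1 regained 33.6% with a difference of 0.87 (limma adjusted p = 0.224) and Ptgs1 18.3% with 0.54 (limma adjusted p = 0.199). At the other end stood Ranbp3l, a Ran-binding protein gene, which regained 0.898% with a difference of 0.02 (limma adjusted p = 0.94). Its level was 5.76 ± 1.36 FPKM in control, 0.131 ± 0.0133 in LPS and 0.151 ± 0.0682 in LPS + G-CDs. Both treated levels are near the floor, where the log2(FPKM + 1) scale leaves little room for a difference. Tk1, the thymidine kinase of dividing cells, regained 11.5% and 2510016D11Rik 8.30%.

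**Figure D3:**
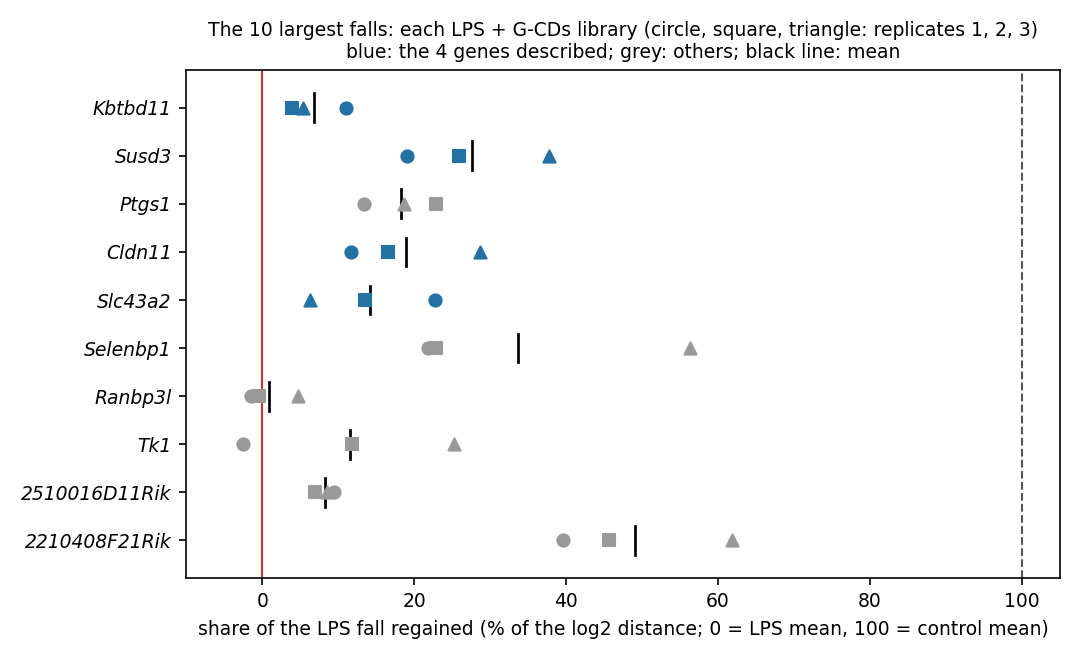
Share of the LPS fall regained in each LPS + G-CDs library for the 10 genes with the largest falls, in percent of the log2 distance from the LPS mean (0) to the control mean (100), with the 4 genes described in blue and the mean as a black line. Means run from 0.898% for Ranbp3l to 49.0% for 2210408F21Rik, and no library of the 4 genes passes 37.7%.

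Within the LPS + G-CDs group the 4 genes did not vary in the same order of libraries. Susd3 and Cldn11 were highest in library 3, and Kbtbd11 and Slc43a2 in library 1. Differences over other genes of like length were therefore set beside them. The median difference from the LPS mean over 500 genes of like length was −0.02, −0.16 and −0.34 in LPS + G-CDs libraries 1, 2 and 3 around the 7137 bases of Kbtbd11, and −0.01, −0.25 and −0.50 around the 10042 bases of Slc43a2. For shorter genes it ran the other way, at −0.02, 0.15 and 0.30 around the 2837 bases of Susd3 and −0.03, 0.26 and 0.58 around the 1870 bases of Cldn11. The medians of the LPS libraries stayed between −0.03 and 0.03. A trend of the same sign was present in control library 3, whose medians from the control mean were −0.14 around Kbtbd11, −0.21 around Slc43a2, 0.09 around Susd3 and 0.18 around Cldn11, while those of control libraries 1 and 2 were of the opposite sign, between −0.09 and 0.12.

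The differences of Slc43a2 itself from the LPS mean were 0.62, 0.37 and 0.17, and after subtraction of the like-length median their range shrank from 0.45 to 0.05 around a mean of 0.64. For Susd3 (0.61, 0.82 and 1.20) the range went from 0.59 to 0.27 with a mean of 0.73, for Cldn11 (0.32, 0.46 and 0.80) from 0.47 to 0.15 with a mean of 0.25, and for Kbtbd11 (0.43, 0.15 and 0.20) from 0.28 to 0.23 with a mean of 0.43. With the length trend of each library removed before the fit, Slc43a2 passed the test, at 0.64 (limma adjusted p = 0.0378). In that setting 39 of the 11585 tested genes were called higher and 53 lower. Susd3 stood at 0.73 (limma adjusted p = 0.117), Kbtbd11 at 0.41 (limma adjusted p = 0.183) and Cldn11 at 0.28 (limma adjusted p = 0.253). The call on Slc43a2 therefore depends on that setting, and what gave rise to the trend was not tested.

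**Figure D4:**
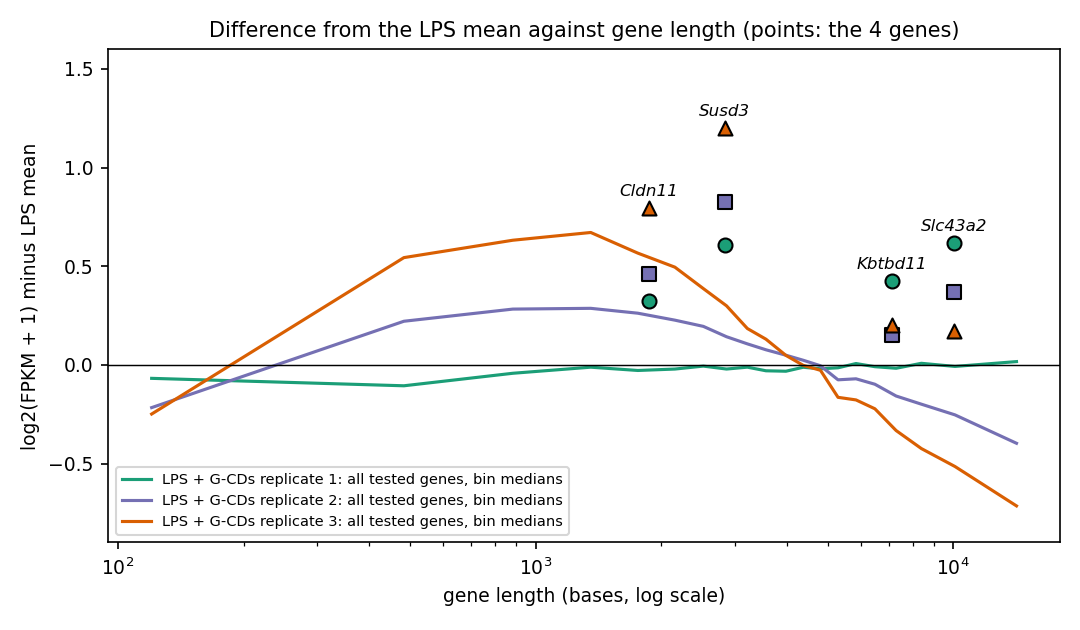
Difference from the LPS mean on the log2(FPKM + 1) scale against gene length on a log axis, as medians of all tested genes in bins of length for each LPS + G-CDs library (lines) and for the 4 genes (points). Library 1 stays close to 0, library 3 is below 0 in the bin of shortest genes (−0.249), above 0 from the next bin (median 484 bases) to past the length of Susd3 and below 0 for long genes, and the points of Cldn11 and Susd3 are spread in the opposite order to those of Slc43a2.

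The genes whose pattern was most like each of the 4 over the 9 libraries were named by Pearson correlation of log2(FPKM + 1), among 7093 genes with a control mean of at least 5 FPKM. The 9 points fall into the 3 groups and share their libraries, which alone gives high correlations to genes that LPS lowered, and 310 (Kbtbd11), 235 (Susd3), 289 (Cldn11) and 283 (Slc43a2) genes exceeded 0.95. Nearest to Kbtbd11 were Inf2 (0.998), a formin, Tonsl (0.997), a DNA repair factor, and Marveld1 (0.997). Inf2 went from 46.2 FPKM in control to 10.95 in LPS and 11.3 in LPS + G-CDs, while Kbtbd11 stood at 70.5, 3.89 and 4.86 FPKM. Nearest to Susd3 were Relt (0.996), a member of the TNF receptor family, Gatd1 (0.995) and Cars2 (0.995), a mitochondrial cysteinyl-tRNA synthetase. For Cldn11 they were Paqr7 (0.997), a membrane progestin receptor, Shb (0.997), a signalling adaptor, and E2f2 (0.996), a cell-cycle transcription factor. Slc43a2 was followed most closely by Sgpp1 (0.998), which removes the phosphate of sphingosine 1-phosphate, 6430548M08Rik (0.996) and Sesn1 (0.995), a stress-induced sestrin. Among the 4 genes themselves the pairs fell by length, with 0.995 for the long genes Kbtbd11 and Slc43a2, 0.992 for the shorter Susd3 and Cldn11, and 0.955 to 0.981 for the mixed pairs.

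To place each gene in its family or pathway, 5 lists of other genes were counted in both comparisons. With G-CDs against LPS, none of the 5 lists had a gene at a limma adjusted p under 0.05, by the main test or by voom. By the main test 0.25% of all tested genes were higher and 0.242% lower. The list counts for G-CDs stand beside 6028 of 11585 tested genes above 0 and 15.2% at an unadjusted p under 0.05 in either direction. Under LPS against control, calls were counted beside the 15.8% higher and 15.6% lower of all tested genes. The split of LPS calls depends on scaling. When libraries were rescaled to a common sum (TPM), the median LPS difference of all genes moved from 0.0165 to −0.210, with 1015 genes higher and 3106 lower in place of 1827 and 1803, so the TPM counts are given for each list.

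Of the 39 BTB-Kelch and Cul3 ligase genes, 38 were found and 30 were tested, and 3 rose and 10 fell with LPS (0 and 11 by TPM). With G-CDs 12 of the 30 differences were above 0, with a median of −0.13, and 2 had an unadjusted p under 0.05. Klhl6, a substrate adaptor known from B cells, fell from 7.59 ± 0.910 to 1.61 ± 0.237 FPKM (limma adjusted p = 2.95e-05) and stood at 2.66 ± 0.490 with G-CDs (0.49, limma adjusted p = 0.236). Klhl21 (−1.27, limma adjusted p = 0.000355) and Klhl36 (−0.96, limma adjusted p = 0.00261) fell too. The closest relatives of Kbtbd11 did not share one direction. Kbtbd8, an adaptor known from neural crest formation, rose by 0.96 (limma adjusted p = 0.0106) and Kbtbd2 by 0.58 (limma adjusted p = 0.00889), neither of which passed by TPM. Kbtbd3 fell by 0.65 (limma adjusted p = 0.0431, passed in 9 of 19 settings), while Kbtbd4 (0.05) and Kbtbd7 (0.21) did not pass. Keap1 fell by 0.38 (limma adjusted p = 0.0215, not passed without any 1 of the LPS libraries or control library 2) and stood 0.16 above LPS with G-CDs (limma adjusted p = 0.383). Cul3 itself differed by 0.34 with LPS (limma adjusted p = 0.0565), and passed with a replicate block (limma adjusted p = 0.0495).

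Of 27 sushi-domain genes, which include complement receptors and regulators, only 6 were tested, and 2 rose and 1 fell (0 and 1 by TPM). Susd6 was the only other Susd gene tested of 5, the rest being at most 0.126 FPKM. It rose from 8.21 ± 2.05 FPKM in control to 21.8 ± 0.943 in LPS (1.33, limma adjusted p = 0.00756, not passed by TPM). With G-CDs it stood at 12.4 ± 5.30 FPKM (−0.85, limma adjusted p = 0.279). Masp2, a protease of the lectin pathway, rose by 0.35 (limma adjusted p = 0.0472, passed in 9 of 19 settings), a call that was lost with a replicate block (limma adjusted p = 0.0551), which left 1 riser in the list. The G-CDs differences of the 6 had a median of −0.08, with 2 of them above 0 and 2 at an unadjusted p under 0.05.

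Of 42 claudin and tight junction genes only 8 were tested, and 2 rose and 2 fell (1 and 3 by TPM). Among the 21 other claudins only Cldn12 was tested, the highest of the rest reaching 1.26 FPKM in any library. Cldn12 rose with LPS from 1.44 ± 0.377 to 6.11 ± 0.352 FPKM (1.55, limma adjusted p = 7.64e-05), and was at 5.48 ± 0.813 with G-CDs (−0.14, limma adjusted p = 0.575). Marveld1, a MARVEL-domain membrane protein, fell from 14.0 ± 1.01 to 2.72 ± 0.0234 FPKM (−2.01, limma adjusted p = 1.63e-06) and stood at 2.83 ± 0.256 with G-CDs (0.04, limma adjusted p = 0.823). Tjp3, the scaffold ZO-3, fell by 1.16 (limma adjusted p = 0.000383). Tspan3, a tetraspanin known to associate with claudin-11, rose by 0.51 (limma adjusted p = 0.0152, not passed by TPM or without LPS library 1 or 3). The 8 genes had a median G-CDs difference of 0.07, with 5 of them above 0 and none at an unadjusted p under 0.05.

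Of 27 plasma-membrane amino acid transporters 16 were tested, and 6 rose and 1 fell with LPS (2 and 1 by TPM). Slc43a2 is not in that count and was chosen for its fall. Its relative Slc43a3 stood at 7.58 ± 2.37, 7.81 ± 0.247 and 6.85 ± 0.821 FPKM in control, LPS and LPS + G-CDs (limma adjusted p = 0.793 for LPS and 0.611 for G-CDs), and Slc43a1 at no more than 0.298 FPKM. Slc7a11, the cystine importer, rose from 2.93 ± 0.766 to 16.4 ± 0.297 FPKM (2.17, limma adjusted p = 0.000141). With G-CDs it stood at 38.1 ± 13.4 FPKM (1.11, limma adjusted p = 0.108), and it passed once the length trend was removed (1.46, limma adjusted p = 0.000997). Slc7a7 (0.98, limma adjusted p = 0.00107), a carrier of cationic and neutral amino acids, rose with LPS. Slc7a1 (1.06, limma adjusted p = 0.0258), a cationic amino acid carrier, and Slc38a1 (0.74, limma adjusted p = 0.014), a glutamine carrier, rose too, but neither passed by TPM, and Slc7a1 passed in 14 of 20 settings and not without any 1 of the LPS libraries or control library 3. The 16 genes had a median G-CDs difference of −0.15, with 5 above 0 and 2 at an unadjusted p under 0.05.

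Of 20 genes of branched-chain amino acid breakdown, the fate of substrates that LAT4 carries, 19 were tested, and 6 rose and 5 fell with LPS (4 and 10 by TPM). Ppm1k, the phosphatase that activates branched-chain ketoacid dehydrogenase, rose from 1.47 ± 0.182 to 5.92 ± 0.592 FPKM (1.49, limma adjusted p = 0.000155), and Dbt, the core subunit of that enzyme, rose by 1.02 (limma adjusted p = 0.00207). Mccc2, of leucine breakdown, fell by 1.02 (limma adjusted p = 0.000869) and Acad8, of valine breakdown, by 0.80 (limma adjusted p = 0.00817). With G-CDs the 19 differences had a median of 0.16, with 13 above 0 and 4 at an unadjusted p under 0.05.

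**Figure D5:**
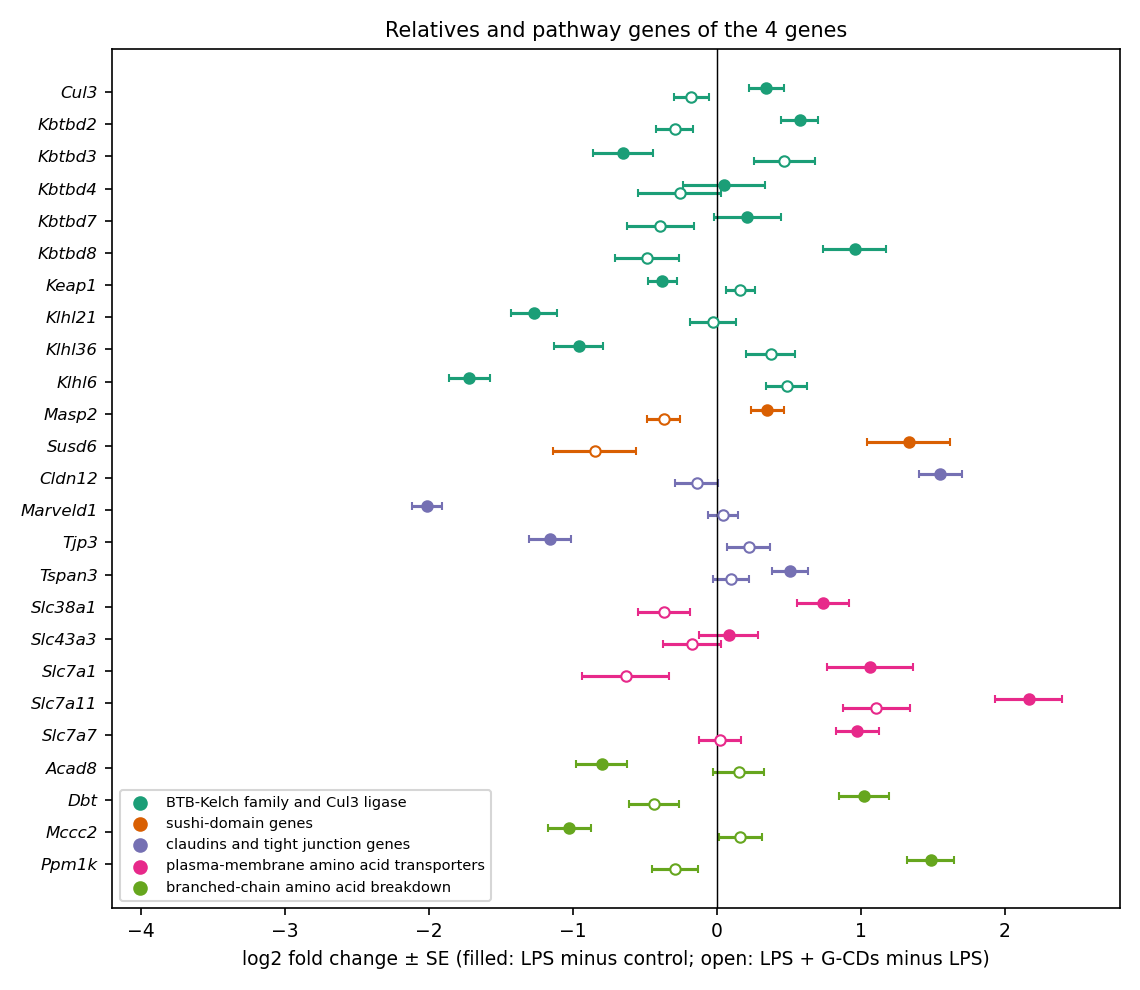
Fitted log2 differences with SE for the named relatives and pathway genes, with LPS minus control as filled points and LPS + G-CDs minus LPS as open points, coloured by list. Filled points run from −2.01 for Marveld1 to 2.17 for Slc7a11, with both directions among the BTB-Kelch, tight junction and branched-chain breakdown genes, and most open points lie nearer to 0.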

How the data were processed

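RNA-seq covered 9 libraries of RAW264.7 cells, 3 per group. The authors deposited FPKM values per gene and library, with gene lengths in bases. The builds GRCm38 and mm10 come from the submitters' processing notes, and the aligner, the counter and the test are not given in the sources used here. Every value column matched a sample by its name, except that the G-CDs libraries carry G-CDs in their titles and LPS alone in their treatment label. Gene coordinates equalled GENCODE release M21 for 53499 of 54409 shared genes.

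FPKM times length was a whole multiple of 1 read, to within 0.05 reads, in 100% of values, which gave 14752400 to 17312255 reads on genes per library and the library sizes behind the deposited values, 0.88 to 1.14 times those reads. These reads were used for depth and for voom only.

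The 11585 genes that reached 1 FPKM in 3 or more libraries were fitted on log2(FPKM + 1) with limma 3.58.1 in R 4.3.3 (lmFit, eBayes with trend, 1 model for 9 libraries), two-sided, with Benjamini-Hochberg adjustment over all of them and calls at 0.05. Python 3.11.15, pandas 2.3.3 and scipy 1.17.1 were used for the rest. The script was tested on simulated data. Named were the 4 genes, the 10 largest falls, tested relatives by family, Keap1 and Cul3, in each list the genes called with G-CDs and up to 4 with the largest LPS change, and 3 genes most like each of the 4. A gene of the sushi-domain list that this rule names is not reported here. The 4 genes and the lists were chosen with earlier results of these data known. The labels do not say whether libraries of a group came from separate cultures, so p-values measure the spread between libraries, which may be technical.

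Replicate numbers are shared by the groups without a stated meaning. Deviations of same-numbered LPS and control libraries correlated at 0.103, 0.137 and 0.113, all above 0.1, so the numbers were taken to pair them. For LPS + G-CDs and LPS they correlated at 0.095, 0.0801 and 0.143, which does not meet that limit. The main fit holds no term for pairing in either comparison. Every limma value given without naming a replicate block is therefore unpaired. Alternatives were another pseudocount, 2 other filters, TPM and median-of-ratios scaling, only 6 libraries, eBayes without trend, voom, a replicate block, removal of the length trend (lowess) and leaving out each library.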

Additional observations from a re-analysis of the deposited data

How the results depend on the processing

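Under 19 alternatives the difference between LPS + G-CDs and LPS stayed above 0 for each of the 4 genes, from 0.13 to 0.41 for Kbtbd11, 0.72 to 1.49 for Susd3, 0.28 to 0.63 for Cldn11 and 0.27 to 0.74 for Slc43a2. Adjusted p-values from limma ran from 0.183 to 0.789, 0.0535 to 0.510, 0.0535 to 0.559 and 0.0378 to 0.584. Removing the gene-length trend was the only alternative that called one of them, Slc43a2 at 0.64, so 1 of the 4 in place of 0. That setting called 39 of the 11585 tested genes higher and 53 lower, in place of 29 and 28. Leaving out 1 library at a time gave 0.18 to 0.32 for Kbtbd11, 0.72 to 1.01 for Susd3, 0.39 to 0.63 for Cldn11 and 0.27 to 0.49 for Slc43a2, and called none. A pseudocount of 0.1 gave 1.40 for Susd3 and 0.67 for Slc43a2, and voom 1.49 and 0.74, since a pseudocount of 1 shrinks low genes. By TPM, the median difference of all genes moved from 0.0174 to −0.116, and the 4 genes stood at 0.13 (Kbtbd11), 0.75 (Susd3), 0.37 (Cldn11) and 0.30 (Slc43a2).

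The number of genes called over the whole table was less stable than the values of the 4 genes. It was 57, against 25 with a pseudocount of 0.1, 37 by TPM, 25 with only the 6 libraries compared and 92 without the length trend. Without 1 library it ran from 11 (LPS + G-CDs replicate 2) to 256 (LPS + G-CDs replicate 1), and was also under 38 without control replicate 2 (23), LPS replicates 1 (14), 2 (12) and 3 (21) or LPS + G-CDs replicate 3 (29). The cause was not tested. Among the lists, only amino acid transporters gained calls with G-CDs, 2 without the length trend (Slc7a11, and Slc3a2, its heavy chain, at 0.67) and 0 to 1 when 1 library was left out (Slc3a2 at 0.86 without LPS + G-CDs replicate 1).

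With a replicate block, 53 genes were called in place of 57 and the adjusted p-values were 0.235 for Kbtbd11, 0.128 for Susd3, 0.151 for Cldn11 and 0.170 for Slc43a2. All 6 LPS + G-CDs and LPS libraries correlated best with the library of their own number, a hint from the data and not from the design. Among named genes the block changed no call other than those of Masp2 and Cul3 under LPS. For LPS against control the block gave 2115 genes higher and 1989 lower in place of 1827 and 1803, with 4 and 9 BTB-Kelch, 1 and 1 sushi-domain, 2 and 3 tight junction, 7 and 1 transporter and 5 and 5 branched-chain breakdown genes. Depth was lowest for Susd3 and Slc43a2 under LPS, at 97 and 350 reads over 3 libraries.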
